A study of Mus musculus with 8 samples.

Results

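The genes described here belong to Nodal and activin signalling and are the ligand and subunit genes Nodal, Inha and Inhba, the Nodal antagonists Lefty1 and Lefty2, the co-receptor gene Tdgf1, the receptor genes Acvr1b, Acvr2a and Acvr2b, and the transducer Smad2. These 10 genes, of 19694 named genes on the array, were found by their names in the deposited array files. The files held 14 probes with these gene names. A further 2 probes were matched by their description (AK041319, an activin receptor IIA clone, and AK015801, a clone whose name is an older name of Acvr2b), and both lay on the strand opposite to the gene, so they were kept apart.

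RNA immunoprecipitation with an antibody against DAZL, a germ cell protein that binds mRNA, had been carried out on gonads of MCH strain mouse embryos at E14.5, for which the labels give no mutation or transgene, in lots of 50 XX or 50 XY gonads. The RNA that came down with the antibody (IP) and the RNA of 5% of the cleared lysate (input) were each measured on 1-colour arrays, after amplification from 1 ng of IP RNA or 50 ng of input RNA. The 8 arrays formed 4 groups of 2 (XX input and IP, XY input and IP). Each IP was set against its input alone, since a control-antibody IP was not analysed here. Whole gonads were taken, so germ cells and somatic cells were measured together, and fewer cells of a type cannot be told apart from less RNA per cell. All XX arrays were on 1 slide and all XY arrays on another, so comparisons of XX with XY cannot be told apart from a difference between slides. IP and input of the same sex were on the same slide. The labels do not state which replicates came from separate lots, and the p-values then measure the spread between these arrays, which may be technical.

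Nodal and the activins are secreted ligands of the TGF-beta family. They bind type II receptors (Acvr2a, Acvr2b), which activate a type I receptor (Acvr1b) and through it Smad2, which enters the nucleus with Smad4. Nodal also needs a co-receptor such as Tdgf1 (Cripto), and it induces its own antagonists Lefty1 and Lefty2. Activin A is a dimer of the beta-A subunit encoded by Inhba, and the alpha subunit encoded by Inha turns a beta subunit into inhibin, which opposes activin. In the fetal testis Nodal signalling is known from germ cells, Inha from Sertoli cells and Inhba from fetal Leydig cells, while in the fetal ovary follistatin (Fst), which binds activin, is a known product of supporting cells.

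Levels are given as log2 signal relative to the 75th percentile of each array, so that 0 is the signal below which 75% of the array's probes lie. A probe is called above background where the scanner software marked it as well above background. The inputs had 16713 to 20391 probes above background and the IPs 6068 to 9468. The lowest signal above background was between -3.59 and -2.34 on the inputs and between 0.03 and 1.02 on the IPs, so a transcript had to reach a much higher relative level to be read on an IP array. Both Dazl probes were above background on all 8 arrays. The IP exceeded the input by 3.09 ± 0.39 and 2.69 ± 0.39 in XX, and by 2.93 ± 0.39 and 2.06 ± 0.39 in XY (log2 difference ± SE from limma, adjusted p = 0.000161, 0.000310, 0.000261 and 0.00201). The last of these fell under the 4-fold limit without the first XY input array (1.86) and without the first XY IP array (1.92), with scaling on probes above background on all 8 arrays (1.74) and with quantile normalization (1.72). Of the germ cell markers 8 of 10 were above background on both XX input arrays and 10 of 10 on both XY input arrays, and all 8 Sertoli cell markers were above background on both XY input arrays.

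Of the 14 member probes, 9 were above background on both XY input arrays, 6 on both XX input arrays, 1 on both XX IP arrays (Smad2) and 1 on both XY IP arrays (Acvr1b). A probe was tested when some group had both of its arrays above background and the probe had no array marked as an outlier. That left 8 probes of 7 genes (Nodal, Lefty2, Inha with 2 probes, Inhba, Acvr2a, Acvr2b and Smad2). A probe that passed only through its high group had to differ, so the counts below describe these probes and support nothing about the pathway as a whole. Acvr1b was above its input in XY, and Inha and Inhba were below their inputs in XY. Smad2 did not differ from its input beyond the spread, and of the other members Lefty1 was above background on 1 XX IP array and the rest on none.

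**Figure D1:**
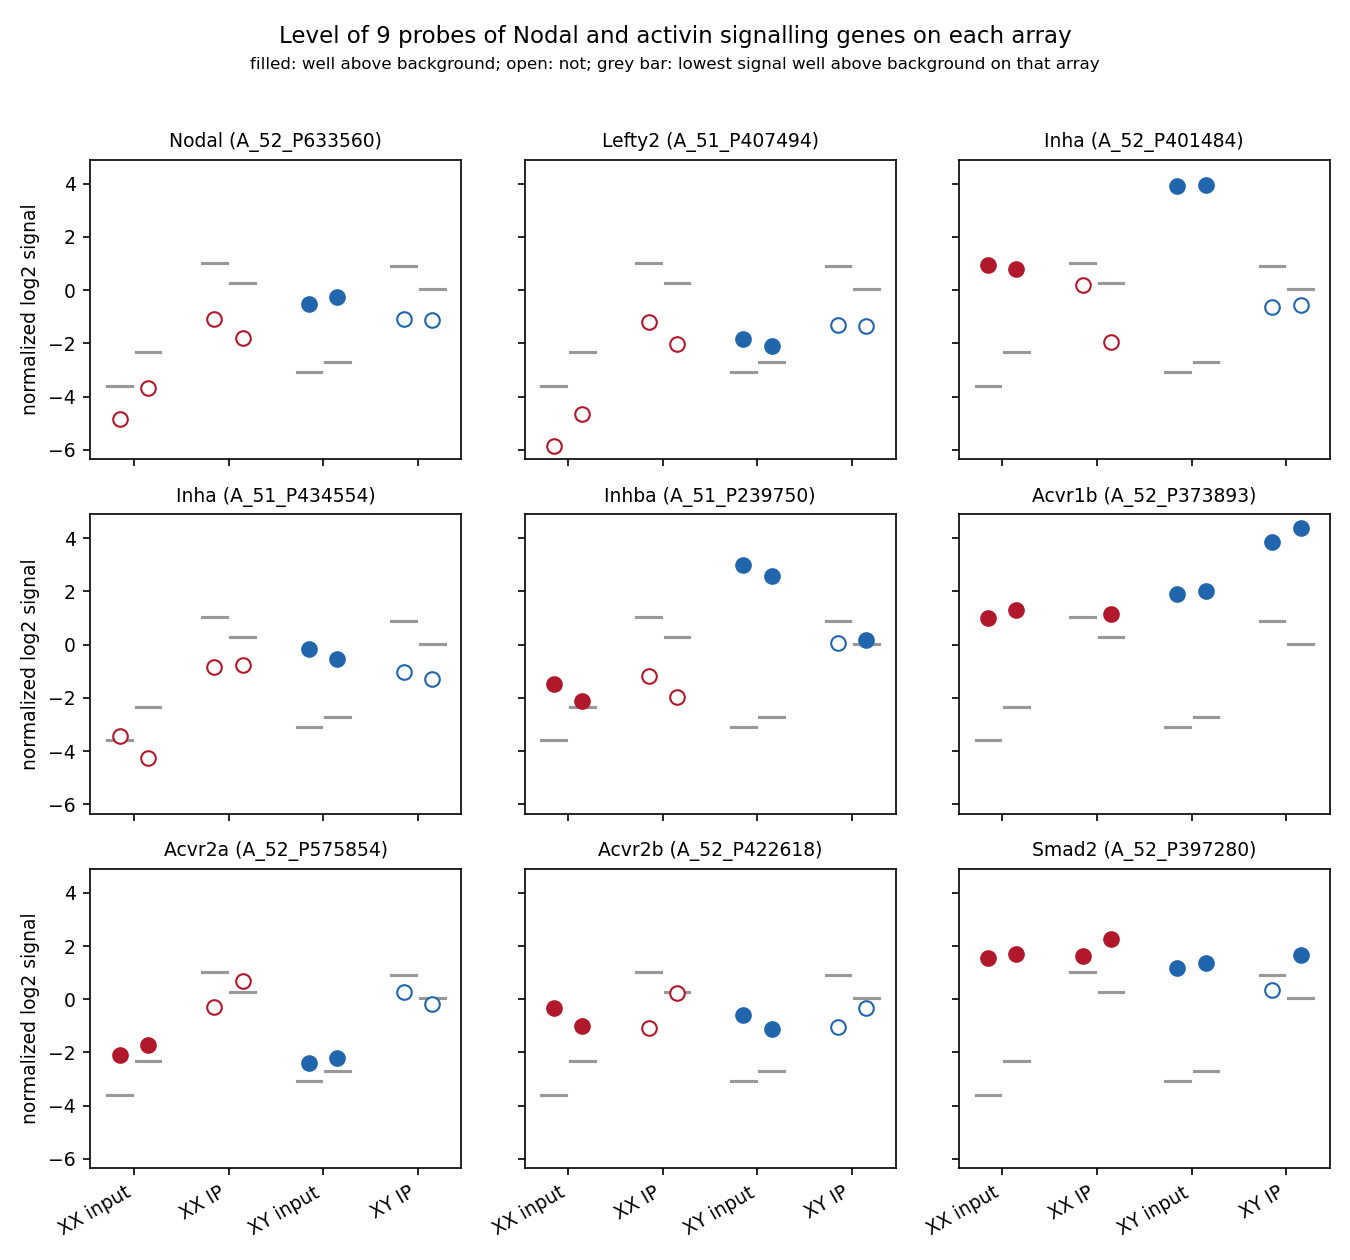
Normalized log2 signal (y axis) of 9 member probes on each of the 8 arrays, by group (x axis), with red for XX and blue for XY. Filled points were well above background, open points were not, and grey bars mark the lowest signal above background on that array. The XY inputs of Nodal, Lefty2, Inha and Inhba sit above the XX inputs, and only Acvr1b, Smad2 and 1 Inhba array have filled points in the IP groups.

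Of the 8 tested member probes 5 were higher in the XY input (Nodal, Lefty2, both Inha probes and Inhba) and 0 in the XX input, where 6.10% and 5.87% of the 18265 tested probes were higher in XY and in XX at an adjusted p under 0.05. Nodal, Lefty2 and the Inha probe A_51_P434554 were above background in the XY inputs only. They were tested through that group, so their direction was fixed by that choice.

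Inhba (A_51_P239750, chr13:15817688-15817747, mm8), which encodes the activin beta-A subunit, was at 3.01 and 2.57 in the XY inputs and at -1.48 and -2.10 in the XX inputs. All 4 arrays were above background. The XX input was lower by 4.58 ± 0.43 on the log2 scale, or 24.0-fold (limma, adjusted p = 4.25e-05). This call held under every alternative processing and without any single array.

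Inha, which encodes the inhibin alpha subunit, had a bright and a dim probe. The bright probe (A_52_P401484, chr1:75393248-75393307, mm8) was at 3.90 and 3.94 in the XY inputs and at 0.93 and 0.78 in the XX inputs, all above background. The difference was 8.37-fold (log2 difference -3.07 ± 0.58, limma, adjusted p = 0.00399). The dim probe (A_51_P434554, chr1:75390528-75390587, mm8) was at -0.15 and -0.56 in the XY inputs, above background, and at -3.45 and -4.27 in the XX inputs, not above background. For it the XY input was at least 5.81-fold higher (limma, adjusted p = 0.000205), a bound that takes the lowest signal above background of each XX array as its level, or the probe's own where that was higher. The dim probe was tested only because its XY inputs were above background, so its direction was fixed by that choice. The call of the bright probe was lost with scaling on probes above background on all arrays, with quantile normalization and with normexp (adjusted p = 0.0811, 0.159 and 0.0881).

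Nodal had 1 probe (A_52_P633560, chr10:60820399-60820458, mm8). In the XY inputs it was at -0.51 and -0.25, above background on both arrays. In the XX inputs it was at -4.85 and -3.69, not above background on either array. The XY level was at least 6.01-fold higher (limma, adjusted p = 0.000209). The probe was tested only because its XY inputs were above background, so its direction was fixed by that choice. Of all alternatives only normexp ended the call (adjusted p = 0.0647).

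Lefty2 (A_51_P407494, chr1:182734521-182734580, mm8), the Nodal antagonist, followed the same order at a lower level. It was at -1.82 and -2.08 in the XY inputs, just above background on both arrays, and at -5.85 and -4.66 in the XX inputs, not above background. The XY level was at least 2.02-fold higher (limma, adjusted p = 0.000720). As for Nodal, the probe was tested only through its XY inputs, so its direction was fixed. The call was lost with quantile normalization, with both forms of normexp and with a common floor (adjusted p = 0.0960, 0.0855, 0.0547 and 0.279). Lefty1 and Lefty2 are close copies, and whether each probe reads its own gene only could not be checked, since the files hold no probe sequences.

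Lefty1 (A_51_P354706, chr1:182774681-182774740, mm8) was not tested. It was at -5.05 and -1.35 in the XX inputs and at -3.63 and -2.10 in the XY inputs, and in each sex only the second array was above background. In the XX IPs it was at 4.56, above background, and at -1.95, not above background. The XX IP arrays thus differed by more than any other member probe did within a group, and this probe gives no level for the XX IP. In the XY IPs it was at -1.23 and -1.39, not above background.

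Tdgf1 (A_52_P23716, chr9:110785566-110785625, mm8), the Nodal co-receptor gene, was near background everywhere and was not tested. Its levels were -2.82 and -3.03 in the XX inputs and -3.61 and -2.64 in the XY inputs, with 1 array above background in each. In the IPs it was at -1.13 and -1.38 (XX) and 0.11 and -1.24 (XY), not above background on any of the 4.

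Neither the receptors nor the transducer passed the test between the inputs. Acvr1b was at 0.99 and 1.31 in the XX inputs and at 1.92 and 2.01 in the XY inputs, which did not overlap, a difference of -0.82 with a 95% confidence interval from -1.72 to 0.08 (limma, adjusted p = 0.264, in a fit with 1 IP array missing for this probe). Acvr2a was at -2.11 and -1.73 in the XX inputs and at -2.41 and -2.23 in the XY inputs, above background on all 4 arrays, a difference of 0.40 with a 95% confidence interval from -0.56 to 1.36. For Acvr2b the difference was 0.20 (-0.92 to 1.31) and for Smad2 0.36 (-0.68 to 1.41), again with all 4 input arrays above background. The intervals leave room for differences of more than 2-fold in these genes.

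**Figure D2:**
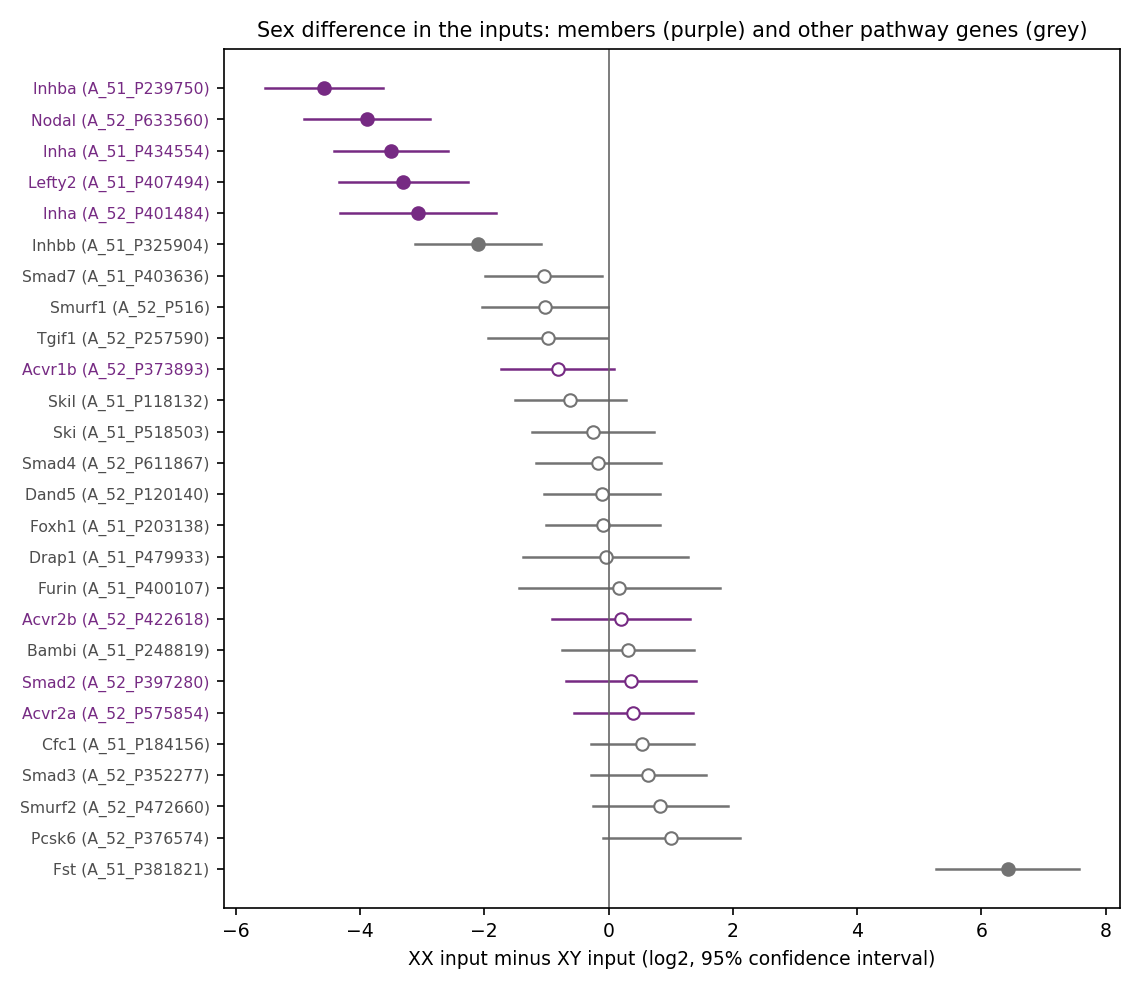
XX input minus XY input (x axis, log2, with 95% confidence intervals) for the 9 member probes that could be fitted (purple) and for 1 probe of each of 17 other tested genes of the pathway (grey). Filled points had an adjusted p under 0.05. Of the filled points Inhba, Nodal, both Inha probes, Lefty2 and Inhbb lie left of 0, and Fst lies far to the right. For Nodal, Lefty2, Fst and Inha A_51_P434554 no array of the lower input was above background, so the text gives only a bound.

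Cell type markers moved with the same comparison. The summed level of 8 Sertoli cell markers, on a linear scale where 1 is the 75th percentile, was 3.83 to 3.88 in the XX inputs and 191 to 226 in the XY inputs, and 6 of the 8 were higher in XY. The 5 fetal Leydig cell markers on the array summed to 2.45 to 3.55 in XX and 77.4 to 82.4 in XY, with all 4 tested markers higher in XY. The 10 germ cell markers summed to 127 to 139 in XX and 203 to 237 in XY, with 5 higher in XY and 1 higher in XX. Of the ovarian supporting cell markers, which include Fst, 2 of 3 tested were higher in XX. Over all tested probes 6.10% were higher in XY and 5.87% in XX. Amh and Dhh were not above background on any XX input array, and Lhcgr and Foxl2 on no array at all. Their part in the differences of Inha, Inhba, Nodal and Lefty2 was not tested.

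Promoter sequence is shown for Nodal, whose XY inputs were above background and whose XX inputs were not, because Smad and Foxh1 proteins downstream of Nodal bind short DNA elements. The 250 bases before the start of the gene are from RefSeq (GRCm38.p6, plus strand), and capitals mark a CCAAT box, a common promoter element. Positions in this build cannot be set against the mm8 probe positions.
Nodal, chr10:61417722-61417971: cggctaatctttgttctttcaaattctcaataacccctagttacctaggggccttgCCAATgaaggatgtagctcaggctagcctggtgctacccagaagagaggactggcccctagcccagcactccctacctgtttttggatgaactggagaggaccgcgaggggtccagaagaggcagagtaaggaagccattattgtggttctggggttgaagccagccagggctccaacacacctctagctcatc

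Each motif was searched on both strands, and the shares are of 32851 promoter windows of this length. CCAAT occurred 1 time in the Nodal window and in 33.8% of all windows. The Smad-binding element AGAC and its longer form CAGAC, which contains it, were not in the Nodal window and were in 82.9% and 42.2% of all windows. The Foxh1 motif AATCCACA and the TATA box TATAAA were not in it either and were in 0.718% and 12.4% of all windows. A match or its absence describes these 250 bases only.

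In the IPs of XX gonads, 4 of the 8 tested member probes (Nodal, Lefty2, the dim Inha probe and Acvr2a) passed an adjusted p under 0.05 with at least 4-fold more signal than in the input, where 14.0% of all tested probes did. None of the 4 was above background on any XX IP array, so 0 of 8 were both enriched and above background on both IP arrays, where 8.20% of all tested probes were. No member was depleted in the XX IP (0 of 8, 9.91% of all tested probes). In XY the probe of Acvr2a was the only 1 of the 8 called enriched (10.2% of all tested probes), and 0 of 8 were enriched and above background on both IP arrays (6.04%). In XY 2 of 8 were depleted, Inhba and the bright Inha probe (7.68%).

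Acvr1b, the type I receptor of activin and Nodal, was the only member above background on both XY IP arrays. Its bright probe (A_52_P373893, chr15:101041559-101041618, mm8) was at 1.92 and 2.01 in the XY inputs and at 3.86 and 4.39 in the XY IPs, and the groups did not overlap. In XX the inputs were at 0.99 and 1.31 and the usable IP array at 1.14, between them. All 7 of these values were above background. The spot was marked as an outlier on the first XX IP array, and the probe was therefore not among the 18265. In a fit added after seeing the data, with that array as a missing value for this probe, the XY IP exceeded the input by 2.16 ± 0.41 (log2), or 4.46-fold (limma, adjusted p = 0.00238, over 18298 probes, of which 10.2% were enriched in XY). In XX the difference was -0.01 with a 95% confidence interval from -1.11 to 1.10, resting on that array. The difference between the sexes was -2.16 ± 0.65 and did not pass (adjusted p = 0.105), but with scaling on probes above background on all 8 arrays it was -2.59 and passed (adjusted p = 0.0399).

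Without the second XY IP array the XY enrichment of Acvr1b was 1.89 (adjusted p = 0.00667) and with scaling on probes above background on all 8 arrays 1.83 (adjusted p = 0.00295), in both cases under the 4-fold limit. With scaling to the 50th percentile it was 0.29 (adjusted p = 0.657), where the median over all tested probes was -1.90. The other Acvr1b probe (A_51_P402391, chr15:101039043-101039100, mm8) was not above background on any array, with levels from -5.63 to -1.12, so the bright probe has no second probe beside it.

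Inha was depleted in the XY IP. Its bright probe was at 3.90 and 3.94 in the XY inputs and at -0.64 and -0.57 in the XY IPs, not above background there, which makes the IP at least 10.95-fold lower (limma, adjusted p = 0.000208). This call held under every alternative and without any single array. In XX the IPs were at 0.19 and -1.95, not above background, against inputs of 0.93 and 0.78. That is a level at least 1.15-fold lower in the IP (adjusted p = 0.0262), short of the 4-fold limit on the log2 difference of -1.74 ± 0.58. The dim probe was at -1.03 and -1.30 in the XY IPs, not above background, and gave no fold.

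Inhba was at 0.05 and 0.17 in the XY IPs, the second of them above background, against 3.01 and 2.57 in the XY inputs. The IP was lower by 2.68 ± 0.43 on the log2 scale (limma, adjusted p = 0.000798), a call that normexp alone ended (adjusted p = 0.0546). No fold is given, since the first XY IP array was not above background. In XX the IPs were at -1.19 and -1.97, not above background, and the inputs at -1.48 and -2.10. An XX IP level up to 2.45 above the input, on the log2 scale, would have stayed under the lowest signal above background, so no change could be read in XX.

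Of the Sertoli cell markers 2 of 8 were depleted in the XY IP and of the fetal Leydig cell markers 2 of 4, beside 7.68% of all tested probes. The IP minus input of Sox9 was 0.01 on the log2 scale, and Fgf9 was not above background on either XY IP array. The summed levels of both lists were 59.6 to 118 and 12.3 to 17.8 in the XY IPs. For the germ cell markers 5 of 10 were enriched in XY, beside 10.2% of all tested probes, with summed levels of 713 to 1081. The part of these cell types in the IP levels of Inha and Inhba was not tested.

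For Nodal the XY IPs were at -1.09 and -1.12, not above background, and the XY inputs at -0.51 and -0.25. The XX IPs were at -1.07 and -1.79, again not above background, and close to the XY IPs. The XX call of Nodal (log2 difference 2.84 ± 0.47, limma, adjusted p = 0.000598) was thus a difference between an unmeasured IP and an unmeasured input, and no fold is given for it. In XY an IP level 0.85 above the input on the log2 scale would have reached the lowest signal above background, so a larger enrichment than that was not seen, while a smaller one, or a depletion, was not detectable.

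Lefty2 was at -1.21 and -2.02 in the XX IPs and at -1.30 and -1.36 in the XY IPs, and the dim Inha probe at -0.85 and -0.78 in the XX IPs. None of these values was above background, and the XX inputs of both probes were not above background either. In XY an enrichment of Lefty2 of up to 2.42 (log2) would have stayed under the lowest signal above background.

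Acvr2a, a type II receptor, was called enriched in both sexes from IP values that were not above background. Its middle probe (A_52_P575854, chr2:48722110-48722169, mm8) was at -0.29 and 0.68 in the XX IPs and at 0.28 and -0.19 in the XY IPs, against inputs of -2.11 and -1.73 in XX and -2.41 and -2.23 in XY, which were above background. IPs and inputs did not overlap in either sex, but the IP levels were unmeasured, so this shows no enrichment. The log2 differences were 2.12 ± 0.44 in XX and 2.36 ± 0.44 in XY (limma, adjusted p = 0.00235 and 0.00175), but the bound on the IP level allows no fold. The lowest signals above background lay 2.78 (XX) and 2.79 (XY) above the inputs. The XX call fell under the 4-fold limit without the first XX input array (1.93) and without the second XX IP array (1.63), with scaling on probes above background on all 8 arrays (1.69) and with quantile normalization (1.63). In XY quantile normalization left 1.87. With scaling to the 50th percentile and with both forms of normexp neither call was met. Its other probes (A_52_P11800 and A_52_P664656) were not above background on any array. The same held for the 2 probes on the strands opposite to Acvr2a and Acvr2b.

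Acvr2b, the other type II receptor, was at -0.33 and -1.0 in the XX inputs, -1.06 and 0.24 in the XX IPs, -0.61 and -1.11 in the XY inputs, and -1.06 and -0.32 in the XY IPs. Inputs were above background and IPs were not, and the groups overlapped in both sexes. Smad2, the transducer, was at 1.56 and 1.71 in the XX inputs, 1.64 and 2.26 in the XX IPs, 1.17 and 1.37 in the XY inputs, and 0.36 and 1.67 in the XY IPs. All but the first XY IP array were above background. Its IP minus input was 0.32 (95% confidence interval -0.72 to 1.36) in XX and -0.26 (-1.30 to 0.78) in XY (limma, adjusted p = 0.601 and 0.693), so neither a 4-fold enrichment nor a 4-fold depletion lay within the intervals. With scaling to the 50th percentile these were -1.69 (adjusted p = 0.0810) and -2.12 (adjusted p = 0.0392), so that Smad2 was called depleted in XY under that scaling, where the medians over all tested probes were -1.92 in XX and -1.90 in XY.

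**Figure D3:**
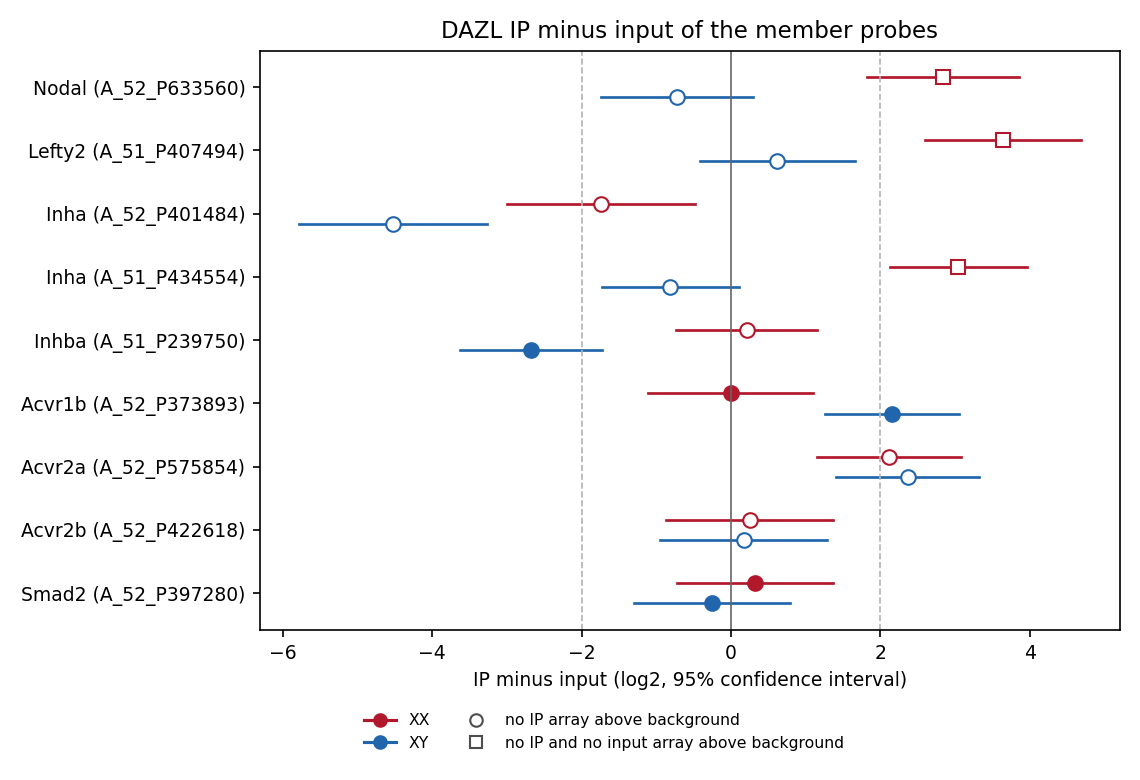
DAZL IP minus input (x axis, log2, with 95% confidence intervals) for 9 member probes in XX (red) and XY (blue), with dashed lines at the 4-fold limit. Filled points had at least 1 IP array and both inputs above background, open circles had no IP array above background, and open squares had neither IP nor input above background. Acvr1b in XY is the only filled point past the limit on the right and Inhba in XY the only such point on the left.

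The IP minus input difference was compared between the sexes in the same fit. For 4 of the 8 probes it was higher in XX (Inhba, Nodal, Lefty2 and the dim Inha probe), where 2.18% of all tested probes were, and for 0 it was higher in XY (1.12%). No XX IP array was above background for any of the 4, and for Nodal, Lefty2 and the dim Inha probe no XX input array was either. The XX side was thus not measured, and these calls do not show a difference between the sexes. These 4 probes were also 4 of the 5 with higher XY inputs, and the XY inputs enter both comparisons. With scaling to the 50th percentile, with scaling on probes above background on all 8 arrays, with normexp and with no filter on dim probes, 0 of the 4 remained.

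The other genes of the pathway were read from lists of 28 genes, of which 17 had a tested probe. In the inputs 1 was higher in XX and 1 in XY, beside 5.87% and 6.10% of all tested probes. Follistatin (Fst, A_51_P381821), the activin-binding antagonist, was at 3.11 and 2.86 in the XX inputs and at -3.16 and -3.72 in the XY inputs, not above background there, and so at least 59.0-fold higher in XX (limma, adjusted p = 1.61e-05). Fst was tested only because both of its XX input arrays were above background, so its direction was fixed by that choice. Inhbb (A_51_P325904), the activin beta-B subunit gene, was at 1.81 and 2.18 in the XX inputs and at 4.05 and 4.14 in the XY inputs, 4.29-fold higher in XY (adjusted p = 0.0106). That call was lost without the first XX input array or without either XY input array (adjusted p = 0.0641 to 0.103), and also with scaling to the 50th percentile, with normexp and with no filter on dim probes (adjusted p = 0.179, 0.169 and 0.0640).

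In the XX IP 2 of the 17 genes were enriched, both above background on both IP arrays, and 1 was depleted, beside 14.0% and 9.91% of all tested probes. The enriched genes were Smurf2, a ubiquitin ligase that acts on Smads and receptors, by 2.94 ± 0.50, and Skil (SnoN), a nuclear repressor of Smad2 and Smad3 target genes, by 2.40 ± 0.41 (limma, adjusted p = 0.000725 and 0.000729). Smurf2 did not pass with quantile normalization (adjusted p = 0.0501), and Skil was at 1.98, under the 4-fold limit, with scaling on probes above background on all 8 arrays. Fst was lower by 2.64 on the log2 scale, with 1 of the 2 XX IP arrays above background (limma, adjusted p = 0.00181). All 3 tested ovarian supporting cell markers, Fst among them, were depleted in the XX IP, and 6 of 10 germ cell markers were enriched. The same shares of all tested probes stand beside these counts. The part of these cell types in the XX IP levels was not tested. In the XY IP 3 of the 17 genes were enriched and 2 depleted, beside 10.2% and 7.68% of all tested probes. Smurf1, a ubiquitin ligase close to Smurf2, was higher in the XY IP by 3.04 ± 0.47 and above background on all 4 XY arrays (adjusted p = 0.000582). Tgif1, a nuclear corepressor, was higher by 2.98 ± 0.44 with 1 XY IP array above background, and Fst was called from values that were not above background in either. The depleted genes were the proprotein convertases Furin and Pcsk6, which cleave ligand precursors. Pcsk6 was lower by 4.26-fold, and Furin by 2.28 on the log2 scale with 1 of its 2 XY IP arrays above background. Both of these XY calls ended without the first XY IP array, where the log2 differences were -0.92 for Furin and -1.43 for Pcsk6. Without the second XY input array Pcsk6 was at -1.97, and without either XY input array Furin no longer passed (adjusted p = 0.0552 and 0.0658). Normexp ended both calls (adjusted p = 0.135 for Furin and 0.0715 for Pcsk6), and quantile normalization that of Furin (adjusted p = 0.104). The median log2 difference over the 17 genes was 0.85 in XX and 0.60 in XY, beside 0.09 and -0.03 over all tested probes. Cfc1, Dand5, Smad3, Drap1 and Tgif1 in XX, and Cfc1, Dand5, Smad3 and Fst in XY, had no IP array above background. The medians thus include unmeasured IPs and do not show a shift of the pathway.

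Between the sexes, Smurf2 was enriched more in XX by 2.98 ± 0.71 (limma, adjusted p = 0.0417). That difference was lost without any of 6 of the 8 arrays (adjusted p = 0.0802 to 0.141), and with 6 other settings, among them scaling to the 50th percentile, quantile normalization and normexp (adjusted p = 0.466, 0.189 and 0.746). On the other Smurf2 probes the difference was 0.17 (A_52_P69740, adjusted p = 0.934) and 2.27 (A_52_P576886, adjusted p = 0.0975). Fst was the 1 gene with the opposite call, at -4.80 ± 0.74 (adjusted p = 0.00722), and neither its XY IPs nor its XY inputs were above background. The Fst call was lost with scaling to the 50th percentile, scaling to the probes above background on all arrays, quantile normalization and normexp (adjusted p = 0.0819, 0.0691, 0.199 and 0.464). Over all tested probes 2.18% differed in the direction of Smurf2 and 1.12% in that of Fst. Smad4, which partners Smad2, was above background on all 8 arrays, and its IP minus input was 0.57 ± 0.46 in XX and 0.83 ± 0.46 in XY (adjusted p = 0.321 and 0.167). Smad3, the transducer closest to Smad2, was not above background on any IP array.

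**Figure D4:**
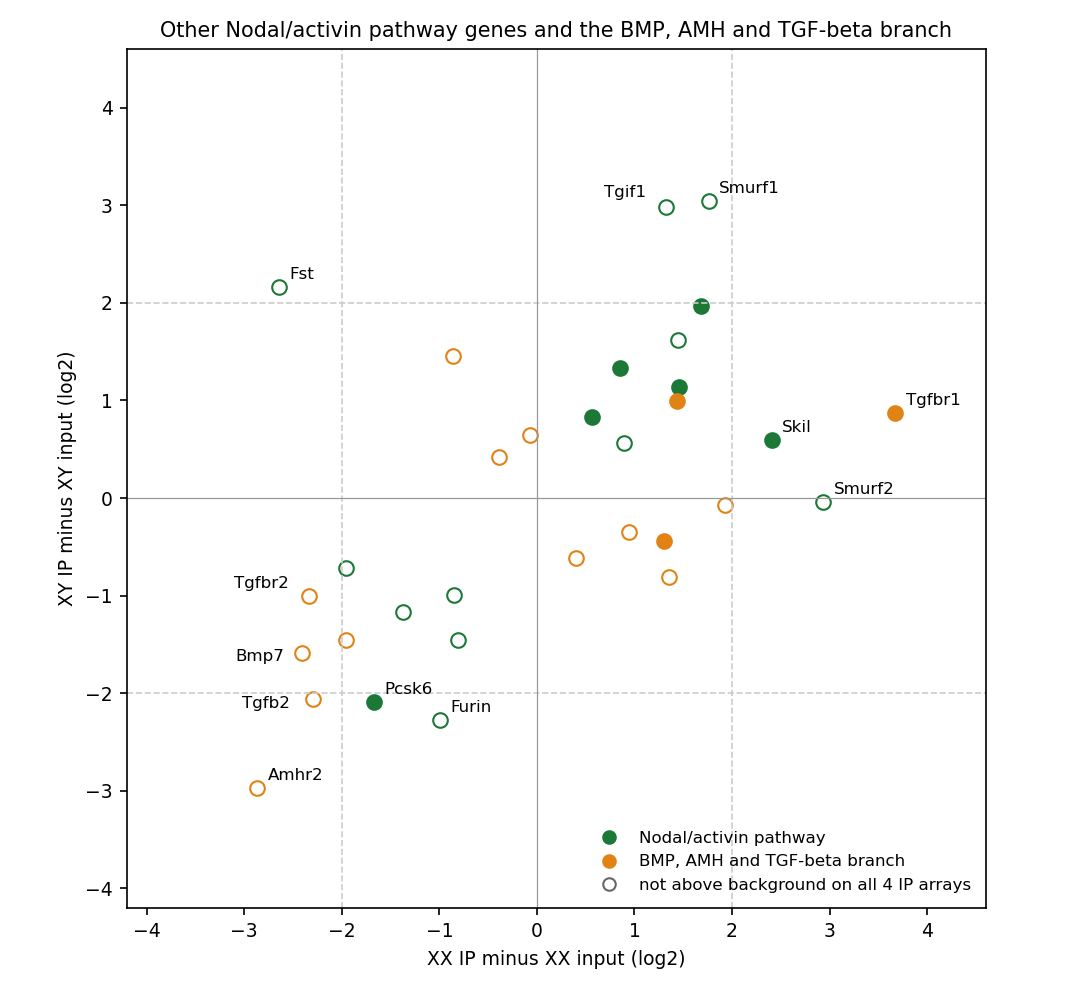
IP minus input in XX (x axis, log2) against XY (y axis, log2) for 17 other genes of the Nodal and activin pathway (green) and 15 genes of the BMP, AMH and TGF-beta branch (orange). Filled points were above background on all 4 IP arrays, dashed lines mark the 4-fold limit, and genes called in either sex are named. Tgfbr1 lies farthest to the right, and Amhr2 at the lower left.

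Among 15 tested genes of the neighbouring BMP, AMH and TGF-beta branch, each read from its brightest probe, 1 (Tgfbr1) was enriched and 4 (Bmp7, Tgfb2, Tgfbr2 and Amhr2) were depleted in the XX IP, while 0 were enriched and 2 (Tgfb2 and Amhr2) depleted in the XY IP. Over all tested probes these shares were 14.0% and 9.91% in XX and 10.2% and 7.68% in XY. No XX IP array was above background for Tgfb2 or Tgfbr2, so their XX IPs were at least 1.65-fold and 1.51-fold lower. Dimmer probes of 2 of the 15 genes gave further calls. Smad5, a transducer of BMP signals, was higher in the XX IP by 3.84 ± 0.53 on A_52_P567359 (adjusted p = 0.000243, all 4 XX arrays above background), while its brightest probe was at 1.44 ± 0.41 and the remaining probe (A_51_P452207) at 1.79 ± 0.54, both under the 4-fold limit. Bmp7 was depleted in both sexes on A_51_P492366, at least 2.27-fold in XX and 1.77-fold in XY (adjusted p = 0.000206 and 0.00153). The call of the brightest Bmp7 probe in XX ended without the first XX IP array (-1.87), that of Tgfb2 in XX without the second XX input array (-1.99), and that of Tgfb2 in XY without the first XY IP or the first XY input array (-1.02 and -2.04). Quantile normalization ended both Tgfb2 calls (adjusted p = 0.128 for XX, 0.105 for XY). Normexp left Tgfb2 at -1.18 and -0.90. In XX normexp also left Bmp7 at -1.94 and Tgfbr2 at -1.01, under the 4-fold limit. In the inputs Amhr2 and Gdf9 were higher in XX and Tgfb1 in XY, and without any of the input arrays neither Amhr2 nor Tgfb1 passed (adjusted p = 0.118 to 0.227). With scaling on probes above background on all 8 arrays Gdf9 and Tgfb1 did not pass (adjusted p = 0.0755 and 0.143), with normexp neither did (0.545 and 0.120), with quantile normalization Tgfb1 did not (0.0920), and with scaling to the 50th percentile Amhr2 did not (0.281). Tgfbr1 (A_52_P4538), the type I receptor of TGF-beta and a relative of Acvr1b, was at 2.90 and 3.13 in the XX inputs and at 6.40 and 6.97 in the XX IPs, 12.8-fold higher (limma, adjusted p = 0.000117). In XY it was at 2.16 and 2.27 in the inputs and at 2.63 and 3.53 in the IPs, and the difference between the sexes was 2.81 ± 0.61 (adjusted p = 0.0309). This difference was lost without either XX input, either XY input or the second XX IP array (adjusted p = 0.0529 to 0.141), and also with scaling to the 50th percentile, with both forms of normexp and with no filter on dim probes (adjusted p = 0.129 to 0.719). In XY the IP minus input of Tgfbr1 was 0.87 ± 0.43 and did not pass (adjusted p = 0.130). Amhr2, the AMH type II receptor, was depleted in both sexes, by 7.29-fold in XX and by 2.97 on the log2 scale in XY (adjusted p = 0.000549 and 0.000661). Only 1 of the 2 XY IP arrays was above background for Amhr2, so no fold is given in XY, and normexp ended that call (adjusted p = 0.0573). With scaling to the 50th percentile and with both forms of normexp the IP enrichments of Smurf1, Smurf2, Skil, Tgif1 and Tgfbr1 no longer met the limits, and the same held for both Dazl probes.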

How the data were processed

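The deposited scanner files give, per the file headers, a processed signal intensity of each spot after background subtraction by Agilent Feature Extraction 9.5.3.1, with mean and local background intensity and other marks for spots above background or outlying. A deposited table holds the authors' own log2 values, scaled to the 75th percentile of each array.

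Spots marked as outlying were dropped, a floor of 1 was set, spots of a probe were averaged, and log2 signals were set against the 75th percentile of the array. Of 41174 probes, 73 were left out as outliers on at least 1 array, and 18265 were tested, those with both arrays of some group above background. Depth is given as probes above background, and with 2 arrays a group their number limits the precision. Linear models with 1 mean per group were fitted to all 8 arrays with limma 3.58.1 in R 4.3.3, two-sided, with Benjamini-Hochberg adjustment over all tested probes. The model was tested on simulated data. IP calls needed an adjusted p under 0.05 and a 4-fold difference, and the other calls an adjusted p alone. Errors after ± are standard errors.

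Where no array of a group was above background, a fold is given as "at least", from the group's level set on each array to the lowest signal above background or the probe's own if higher. Members were named by the array files, and other genes by accession (23374 probes), symbol (6733) or older symbol (2919) through the GRCm38.p6 gene table. Probe positions are on mm8, as the files give them, and gene parts on that build were not analysed here. The text names all member probes, the probe with the highest mean for each other gene called, and Dazl, with Smad3 and Smad4 named beside Smad2 after their values were seen. The nearest patterns were to be listed for a member above background on all 8 arrays, and 0 members were. The members and all lists (pathway, BMP, AMH and TGF-beta branch, and markers of germ, Sertoli, fetal Leydig, ovarian supporting, endothelial and erythroid cells) were chosen with earlier results of these data known. Alternatives were other scalings, quantile normalization, normexp, a common floor, no filter, the 4 arrays of a contrast, the deposited table, the replicate block and leaving out each array.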

Additional observations from a re-analysis of the deposited data

Results flagged for a closer look

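For 4 member probes the fitted IP minus input difference between XX and XY had an adjusted p under 0.05 (limma over all 8 arrays). The fitted difference was higher in XX by 3.56 for Nodal (A_52_P633560), 3.02 for Lefty2 (A_51_P407494), 3.86 for the dim Inha probe (A_51_P434554) and 2.89 for Inhba (A_51_P239750), all on the log2 scale, with adjusted p = 0.0167, 0.0335, 0.00709 and 0.0271. Each sex rested on 2 input and 2 IP arrays. No XX IP array was above background for any of these probes, and the 2 XX input arrays were above background for Inhba only. Nodal, Lefty2 and the dim Inha probe were tested only because their XY inputs were above background. The XX IP level was unmeasured for all 4 probes, so these values are a description, and the test does not show a difference between the sexes. The Nodal call ended without the first XX input, the first XX IP or the second XY input array (adjusted p = 0.0940, 0.0550 and 0.0553). The Lefty2 call ended without the first XX input, the first XX IP, either XY input or the first XY IP array (0.0505 to 0.182), and the Inhba call without any input array or the first XX IP array (0.0633 to 0.144). These differences cannot be told apart from a difference between the slides.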

How the results depend on the processing

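Relative to the 4 member probes enriched in the XX IP, the 1 in the XY IP, the 2 depleted in the XY IP, the 4 with a higher IP minus input in XX and the 5 higher in the XY input, scaling to the 50th percentile gave 0, 0, 5, 0 and 5, with 1 depleted in the XX IP. Quantile normalization gave 0, 0, 2, 1 and 3, normexp 0, 0, 1, 0 and 2, and normexp with outlying local backgrounds replaced 0 and 0 enriched and 2 with a higher difference in XX. A common floor gave 1 enriched in XX and 2 with a higher difference in XX, scaling on probes above background on all arrays gave 0 for that difference, and no filter on dim probes gave 8 and 5 enriched and 0 for the difference. Keeping probes with marked arrays, added after seeing the data, gave 2 enriched in XY. The cause of these changes was not tested, except that no filter added dim probes to the test.

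Leaving out 1 array at a time, where the lone array left was taken to vary like the others, gave 3 to 4 enriched and 0 to 1 depleted in XX, 1 enriched and 2 depleted in XY, 1 to 5 and 0 with a higher difference in XX or XY, and 0 and 5 higher in the XX and XY inputs. No direction of a called member turned except that of Nodal in the XX IP, at -0.34 with quantile normalization (adjusted p = 0.579). The difference of Dazl probe A_52_P271166 in XY was -0.19 with normexp with backgrounds replaced (adjusted p = 0.458).

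Values near 0 that met no limit changed sign as follows. Acvr2b was at -1.76, -0.18 and -0.88 in XX, -1.69, -0.16 and -0.68 in XY, and -0.065, -0.021 and -0.20 between the sexes with scaling to the 50th percentile, scaling on probes above background on all arrays and quantile normalization, and at -0.10 between the sexes with normexp with backgrounds replaced and -0.031 between the inputs with normexp. Smad2 in XX was at -1.69 and -0.11 with those scalings and at -0.77 with either normexp, and between the sexes at -0.29 and -0.10 with normexp. Leaving out arrays moved Acvr2b to between -0.40 and 0.90 in XX, -0.20 and 0.54 in XY, -0.57 and 0.73 between the sexes and -0.14 and 0.53 between the inputs, Smad2 in XY to between -0.91 and 0.40 and between the sexes to between -0.077 and 1.23, and Acvr1b in XX to between -0.17 and 0.16.

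The labels do not say that a replicate number marks a shared lot. The correlation of same-numbered input and IP deviations was 0.03 in XX and 0.14 in XY over 4206 probes. The numbers therefore only name arrays. With the replicate block 5 member probes had a higher difference in XX, and every other count and call of a named probe was as reported. The deposited table and fits to the 4 arrays of a contrast gave the same counts. Normexp left a spread of 0.69 and 0.53 (log2 SD) on the first XY input and the second XY IP array, against 1.61 and 0.88 with outlying backgrounds replaced.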

Other observations

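Markers of cell types that the member genes are not known for were also read. Of the erythroid cell markers 2 of 4 tested were depleted in the XX IP and 2 of 4 in the XY IP, beside 9.91% and 7.68% of all tested probes, and their summed level, where 1 is the 75th percentile, was 241 to 416 in the inputs and 34.2 to 123 in the IPs. Of the endothelial cell markers 2 of 3 tested were depleted in the XX IP and 0 of 3 in the XY IP, beside the same shares. Of the endothelial cell markers Pecam1 and Tie1 were not above background on any array.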
